A study of Mus musculus with 9 samples.

Results

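The 10 genes described here encode the enzymes of bile acid synthesis and conjugation, the basolateral bile acid carrier and the nuclear receptors of bile acid feedback in mouse liver. They were taken by symbol from the count table, and all 10 were found among its 24008 listed genes and among the 14379 genes with enough reads to test. Whole livers of 9 mice with nonalcoholic steatohepatitis (NASH, a fatty liver disease with inflammation and hepatocyte injury) were profiled by RNA-seq. There was 1 library per mouse and 3 mice per group. The sample titles give no sex. The study's reporting summary names only male mice in one place and both sexes in another. Flox mice, which the labels call WT, carried the floxed Irf4 gene without Cre. F4MKO mice carried the same allele with a Myl1-driven Cre, which deletes the transcription factor IRF4 in skeletal muscle. F4MKO + FSTL1 mice were F4MKO mice whose gastrocnemius was injected with an adeno-associated virus that carried the secreted protein FSTL1 under the muscle promoter MCK. Per the study's methods, Flox and F4MKO mice received a GFP virus instead, although the labels name no vector for them. All mice were on a C57BL/6J background and were fed a high-fat, high-carbohydrate diet with cholesterol and a fructose and glucose drink from 8 weeks of age. The methods give 24 weeks of this diet in one place and 12 weeks in another, and collection 4 weeks after the virus.

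Bile acids are made from cholesterol in hepatocytes by a classic and an alternative pathway. In the classic pathway, CYP7A1 (cholesterol 7α-hydroxylase) sets the rate and CYP8B1 (sterol 12α-hydroxylase) directs the product towards cholic acid. In the alternative pathway, CYP27A1 (mitochondrial sterol 27-hydroxylase) acts on the side chain and CYP7B1 (oxysterol 7α-hydroxylase) follows. Both pathways use the reductase AKR1D1, and the products are joined to coenzyme A by SLC27A5 (bile acyl-CoA synthetase) and to taurine or glycine by BAAT. Bile acids that return from the gut enter hepatocytes through SLC10A1 (NTCP) and bind the nuclear receptor FXR, encoded by Nr1h4, which induces the repressor SHP, encoded by Nr0b2.

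In brief, none of the 10 genes passed the test between F4MKO and Flox livers, where 0.271% of all tested genes did. Of the 10 genes, 3 were higher in F4MKO + FSTL1 than in F4MKO livers, as were 3.21% of all tested genes. These were Cyp7b1 of the alternative pathway (3.39-fold), the carrier gene Slc10a1 (1.66-fold) and the conjugation gene Slc27a5 (1.51-fold). Leaving out a single library could lose the call of Cyp7b1 or of Slc27a5, but not that of Slc10a1. Cyp7a1 differed more between mice of the same group than between groups. None of the 10 genes passed the test between F4MKO + FSTL1 and Flox livers, where 1 of all 14379 tested genes did.

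The promoters of Slc10a1, Cyp8b1 and Nr0b2 are shown because each of these genes had all 3 F4MKO livers below all 3 Flox livers and because they hold letters of motifs bound by liver or cytokine-activated factors. RefSeq entries of the GRCm38.p6 assembly, the build of mm10, were at hand for 6 of the 10 genes. The 250 bases before each start site are printed on the gene's strand, with motif matches in capitals. In Slc10a1 (chr12:80968706-80968955, minus strand) and in Nr0b2, the capitals TTCNNNGAA mark the palindrome bound by STAT factors. In Cyp8b1 (chr9:121916306-121916555, minus strand), the capitals mark part of an HNF4A site, CAAAGTCCA. In Nr0b2 (chr4:133553126-133553375, plus strand), the first capitals mark CAAGGCCA, a form of the NR5A2 (LRH-1) site.
Slc10a1: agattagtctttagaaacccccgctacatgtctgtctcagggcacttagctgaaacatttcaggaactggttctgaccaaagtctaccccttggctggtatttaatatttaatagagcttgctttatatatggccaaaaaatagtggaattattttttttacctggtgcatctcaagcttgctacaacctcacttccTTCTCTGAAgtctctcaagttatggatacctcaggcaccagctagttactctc
Cyp8b1: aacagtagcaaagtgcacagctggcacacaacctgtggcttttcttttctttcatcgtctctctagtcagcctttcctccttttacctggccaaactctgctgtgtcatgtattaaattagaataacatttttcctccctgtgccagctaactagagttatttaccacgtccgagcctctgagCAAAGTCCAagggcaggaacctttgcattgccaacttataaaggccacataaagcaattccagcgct
Nr0b2: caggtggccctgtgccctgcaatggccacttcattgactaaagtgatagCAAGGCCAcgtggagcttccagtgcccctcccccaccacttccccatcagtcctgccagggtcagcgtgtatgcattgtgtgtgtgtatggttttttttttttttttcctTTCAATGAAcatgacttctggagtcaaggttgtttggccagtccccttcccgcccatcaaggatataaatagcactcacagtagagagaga
The matches began 53 bases before the start of Slc10a1, 67 bases before that of Cyp8b1, and 201 and 91 bases before that of Nr0b2. Both strands of all windows from 250 bases before to 50 bases after a start site were searched for 8 motifs. Of 32851 such windows, 8.30% held TTCNNNGAA, 0.475% held CAAAGTCCA and 2.40% held CAAGGCCA. The other motifs searched were CAAGGTCA (1.56% of windows), CAAAGGTCA (0.478%), the FXR repeat AGGTCANTGACCT (0.00913%) and the D-box forms TTATGTAA (0.938%) and TTACGTAA (0.119%). A further entry of Slc10a1 (chr12:80968030-80968329, minus strand), not printed, held none of these motifs. The entries of Cyp27a1, Akr1d1 and Nr1h4 held none either, although Cyp27a1 also had all 3 F4MKO livers below all 3 Flox livers. None of the capitals overlapped each other, and a match of letters does not show binding.

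Reads counted on genes ranged from 20656976 to 24322984 per library. Levels are given as CPM (read counts relative to the library size after TMM normalization, which scales libraries to each other), and as RPKM (CPM per kilobase of exon) where genes are compared with each other. A gene was called changed at an adjusted p below 0.05 and a fold change above 1.5, from the quasi-likelihood test of edgeR, with p adjusted after Benjamini and Hochberg over all 14379 genes. F4MKO replicate 1 stood apart from the other 2 F4MKO livers. Its 10 hepatocyte marker genes summed to 71327 CPM, against 86148 to 103106 CPM in the other 8 libraries, and its cholangiocyte markers summed to 471 CPM, against 55.5 to 250.2 CPM. F4MKO replicate 1 also held the lowest CPM within its group for 8 of the 10 bile acid genes. Its TMM factor, by which all CPM of a library are divided, was 1.17, against 1.03 in each of the other 2 F4MKO livers. The factors ran from 0.969 to 1.02 in Flox livers and from 0.927 to 0.955 in F4MKO + FSTL1 livers. In whole tissue, fewer cells of a type and less RNA per cell cannot be told apart. F4MKO + FSTL1 replicate 1 stood apart in liver Irf4 itself, with 10 reads (0.467 CPM) against 92 to 132 reads (4.24 to 6.06 CPM) in the other 8 livers. The reason was not tested. Without this library, Cyp7b1 (log2 fold change 1.91, adjusted p = 0.0191) and Slc10a1 (0.79, adjusted p = 0.0111) were called higher in F4MKO + FSTL1 than in F4MKO livers, and Slc27a5 was not (0.57, adjusted p = 0.0520). Against Flox livers, none of the 10 genes was called with or without it.

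Per kilobase of exon, the conjugation gene Slc27a5 and the alternative-pathway gene Cyp27a1 had the highest levels of the 10 in each group, without overlap with the gene that came next. In Flox livers, the order by mean RPKM was Slc27a5 (322 ± 28.4, SD, n = 3), Cyp27a1 (292 ± 11.7), Slc10a1 (230.1 ± 40.4), Cyp8b1 (229 ± 2.06), Baat (152 ± 7.71), Nr1h4 (76.5 ± 19.4), Cyp7b1 (66.4 ± 13.7), Nr0b2 (51.1 ± 11.4), Cyp7a1 (39.5 ± 28.3) and Akr1d1 (22.8 ± 5.63). Ranges of neighbours in this order did not overlap at 4 places, which were between Slc27a5 and Cyp27a1, between Cyp27a1 and Slc10a1, between Cyp8b1 and Baat and between Baat and Nr1h4. All other neighbours overlapped. In F4MKO livers, Cyp8b1 (119 ± 70.8 RPKM) stood below Baat, and Cyp7b1 (26.5 ± 15.6 RPKM) below Cyp7a1 and Nr0b2, with overlapping ranges in each case. In F4MKO + FSTL1 livers, the first 5 genes had the same order as in Flox livers, and Cyp7b1 (90.0 ± 22.5 RPKM) stood above Nr1h4 (87.1 ± 9.36 RPKM).

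**Figure D1:**
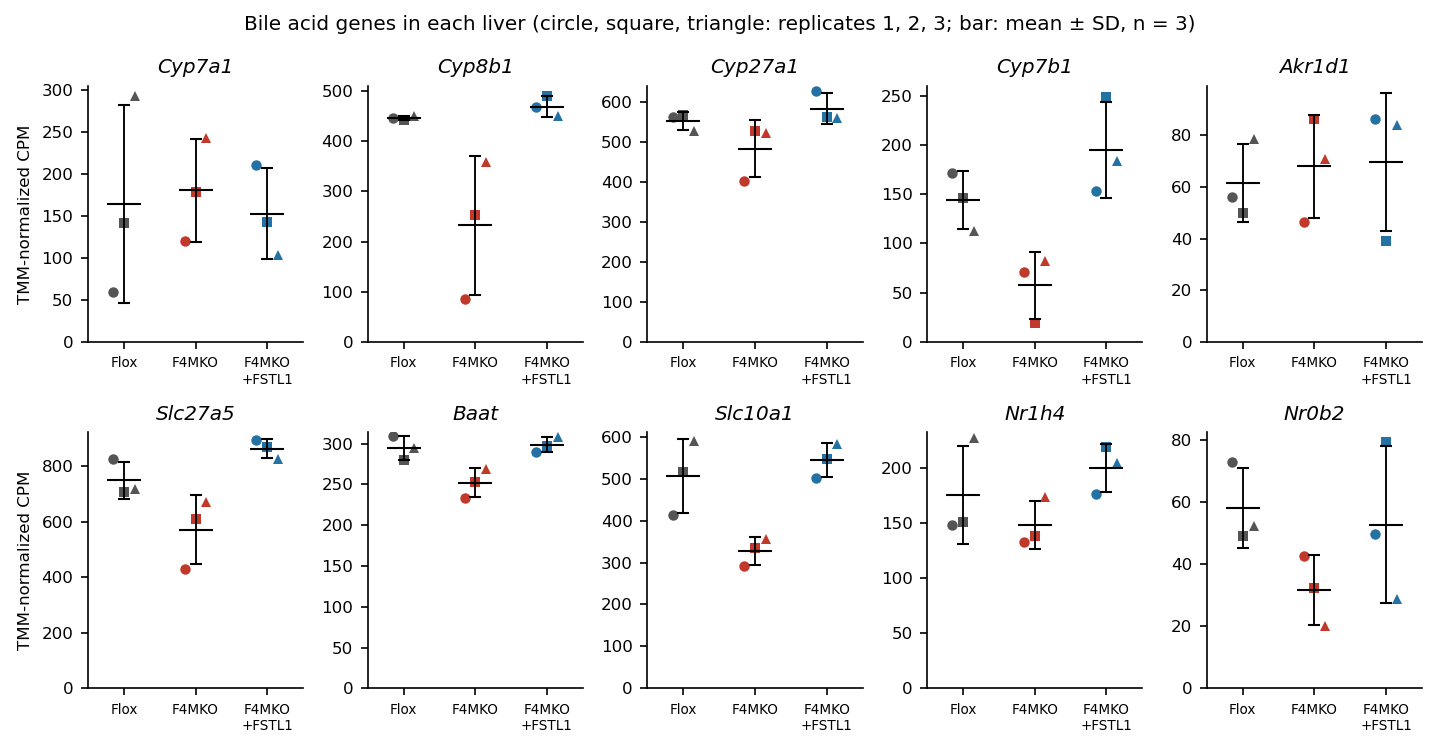
Level of each of the 10 bile acid genes (vertical axis, TMM-normalized CPM from 0) in the 3 livers of each group (horizontal axis), with circles, squares and triangles for replicates 1, 2 and 3 and bars for the mean ± SD. Slc10a1 in F4MKO livers lies between 292 and 356 CPM, below every other liver, whereas Cyp7a1 spans 59.8 to 293 CPM within the Flox group.

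The genes differed in how far mice of the same group lay apart. The SD of log2 CPM within groups was 0.78 for Cyp7a1, which is larger than that of 98.3% of all tested genes. It was 0.72 for Cyp7b1, 0.63 for Cyp8b1, 0.55 for Nr0b2 and 0.50 for Akr1d1, each larger than that of more than 90% of tested genes. Nr1h4 (0.25), Slc27a5 (0.21), Slc10a1 (0.18) and Cyp27a1 (0.14) lay around the median of all tested genes, 0.196. Baat was the steadiest of the 10, with an SD of 0.077, and only 4.84% of tested genes had a smaller one.

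Between F4MKO and Flox livers, 0 of the 10 genes passed the test, where 0.271% of all tested genes were called. At an unadjusted p below 0.05, 6 of the 10 genes passed (Slc10a1, Cyp7b1, Cyp8b1, Nr0b2, Slc27a5 and Baat), all with lower estimates in F4MKO livers, and 16.9% of all tested genes did. DESeq2 called 1 of the 10, Slc10a1, with a log2 fold change of -0.63 (adjusted p = 0.00168), where it called 2.23% of all genes it adjusted, 338 against the 39 of edgeR. The F4MKO livers lay below the Flox livers without overlap for 7 of the 10 genes, whereas 10% of all tested genes had non-overlapping groups in this direction. The median log2 fold change of the 10 genes was -0.32, and that of all tested genes was close to 0. Without the filter on low counts, edgeR called Cyp8b1 (adjusted p = 0.0357), Cyp7b1 (0.00554), Slc10a1 (0.00888) and Nr0b2 (0.0403) lower, at nearly the same fold changes but smaller SE (0.25 against 0.36 for Cyp8b1). That setting called 478 of all genes (1.99%), so that calls became more frequent across the table and not only among the 10 genes.

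Between F4MKO + FSTL1 and F4MKO livers, 3 of the 10 genes were called higher and none lower. Of all tested genes, 14.4% were called in this comparison, 3.21% as higher. The F4MKO + FSTL1 livers lay above the F4MKO livers without overlap for 7 of the 10 genes, against 18% of all tested genes, and the median log2 fold change of the 10 genes was 0.51. This comparison and the previous one share the F4MKO libraries, so a low F4MKO liver enters both. Between F4MKO + FSTL1 and Flox livers, 0 of the 10 genes were called by edgeR or by DESeq2 (0.00695% of all tested genes by edgeR, 2% by DESeq2), and 0 had an unadjusted p below 0.05, which 13.4% of all tested genes had. Only Slc27a5 had non-overlapping groups in that comparison, with F4MKO + FSTL1 livers higher, as 7.44% of all tested genes had.

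**Figure D2:**
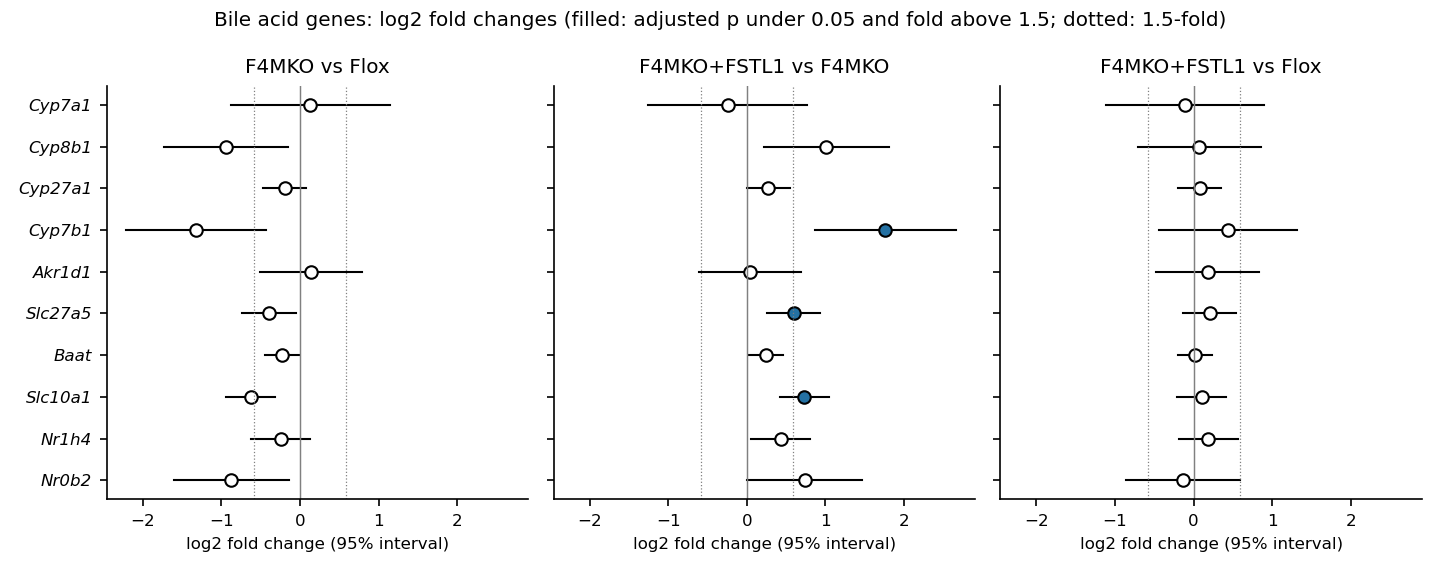
Log2 fold change of each bile acid gene (points) with its 95% interval (lines) in the 3 comparisons, the first-named group minus the second, with filled points for adjusted p under 0.05 and fold above 1.5. Filled points are seen only in the middle panel, for Cyp7b1, Slc27a5 and Slc10a1.

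The rate-setting enzyme gene of the classic pathway, Cyp7a1 (chromosome 4, 6265612 to 6275633, minus strand, GRCm38, 6 exons), measured 59.8, 142 and 293 CPM in the Flox livers, 120.2, 178 and 243 CPM in the F4MKO livers and 211, 143 and 104 CPM in the F4MKO + FSTL1 livers. The groups overlapped throughout, and the highest and the lowest liver were both Flox livers, 4.89-fold apart. In F4MKO against Flox livers the log2 fold change was 0.13 with a 95% interval from -0.88 to 1.14 (adjusted p = 0.911), and in F4MKO + FSTL1 against F4MKO livers it was -0.24 with an interval from -1.25 to 0.77 (adjusted p = 0.745). The first interval reaches a level more than 2-fold higher and the second a level more than 2-fold lower. Differences of that size were thus not excluded with 3 mice per group. Leaving out 1 library at a time moved the first estimate between -0.27 and 0.84.

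Cyp8b1, the 12α-hydroxylase gene of the same pathway (chromosome 9, 121914356 to 121916305, minus strand, 1 exon), measured 446, 442 and 450.0 CPM in the Flox livers, 84.9, 254 and 359 CPM in the F4MKO livers and 469, 490.3 and 449.9 CPM in the F4MKO + FSTL1 livers. All F4MKO livers lay below all other livers, but they were 4.22-fold apart among themselves, while the Flox livers were within 1.02-fold of each other. The log2 fold change of F4MKO against Flox livers was -0.94 ± 0.36 (SE, edgeR adjusted p = 0.225), and that of F4MKO + FSTL1 against F4MKO livers was 1.01 ± 0.36 (adjusted p = 0.0673). The latter depended on single libraries, since Cyp8b1 was called higher without F4MKO replicate 1 (log2 fold change 0.61, adjusted p = 0.0250) and without F4MKO replicate 3 (1.47, adjusted p = 0.0149). Against Flox livers, F4MKO + FSTL1 livers differed by 0.07 on the log2 scale, with an interval from -0.71 to 0.86.

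Within a liver, the 2 genes of the classic pathway did not keep a fixed ratio. The log2 ratio of Cyp8b1 to Cyp7a1 was 2.90, 1.64 and 0.62 in Flox livers, -0.50, 0.51 and 0.56 in F4MKO livers and 1.15, 1.77 and 2.11 in F4MKO + FSTL1 livers. Each F4MKO liver lay below each liver of the other groups, although F4MKO replicate 3 (0.56) and Flox replicate 3 (0.62) were close. In Flox livers, where Cyp8b1 hardly varied, this ratio followed Cyp7a1 alone.

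In the alternative pathway, Cyp27a1 (chromosome 1, 74713574 to 74737892, plus strand, 9 exons) measured 562, 568 and 527 CPM in the Flox livers, 402, 526 and 521 CPM in the F4MKO livers and 628, 563 and 559 CPM in the F4MKO + FSTL1 livers. Its F4MKO livers lay just below the others, and F4MKO replicate 1 was lower than the other 2 F4MKO livers. The log2 fold change was -0.19 ± 0.12 in F4MKO against Flox livers (adjusted p = 0.460) and 0.27 ± 0.12 in F4MKO + FSTL1 against F4MKO livers (adjusted p = 0.142), neither past the test.

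Cyp7b1, the next enzyme gene of this pathway (chromosome 3, 18071950 to 18243338, minus strand, 6 exons), showed the largest differences of the 10 genes. It measured 172, 147 and 113 CPM in the Flox livers, 70.5, 19.1 and 82.6 CPM in the F4MKO livers and 153, 249 and 183 CPM in the F4MKO + FSTL1 livers. The highest F4MKO liver lay below the lowest liver of both other groups, and the lowest, F4MKO replicate 2, was not the library with the low hepatocyte markers. Cyp7b1 was 3.39-fold higher in F4MKO + FSTL1 than in F4MKO livers (log2 fold change 1.76 ± 0.41, edgeR adjusted p = 0.0121, higher in 3 of 3 livers). Without F4MKO + FSTL1 replicate 2, the log2 fold change was 1.55 and the adjusted p 0.0507, so that the call was lost. In F4MKO against Flox livers the log2 fold change was -1.32 ± 0.41 (adjusted p = 0.148), and in F4MKO + FSTL1 against Flox livers it was 0.44 with an interval from -0.43 to 1.31 (adjusted p = 0.720).

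The balance between the pathways was described within each liver by 2 ratios. The log2 ratio of Cyp7a1 to Cyp7b1 was -1.52, -0.05 and 1.37 in Flox livers, 0.77, 3.22 and 1.56 in F4MKO livers and 0.46, -0.79 and -0.82 in F4MKO + FSTL1 livers. F4MKO livers lay above F4MKO + FSTL1 livers, and Flox livers spanned from below the latter into the former. The log2 ratio of Cyp7b1 to Cyp27a1, both of the alternative pathway, was -1.71, -1.95 and -2.22 in Flox livers, -2.51, -4.78 and -2.66 in F4MKO livers and -2.04, -1.18 and -1.61 in F4MKO + FSTL1 livers. F4MKO livers were the lowest here, so that the 2 genes of the alternative pathway did not differ between groups to the same extent. With 3 livers against 3, an exact two-sided permutation test on such a ratio cannot give a p below 0.1, and none is given.

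**Figure D3:**
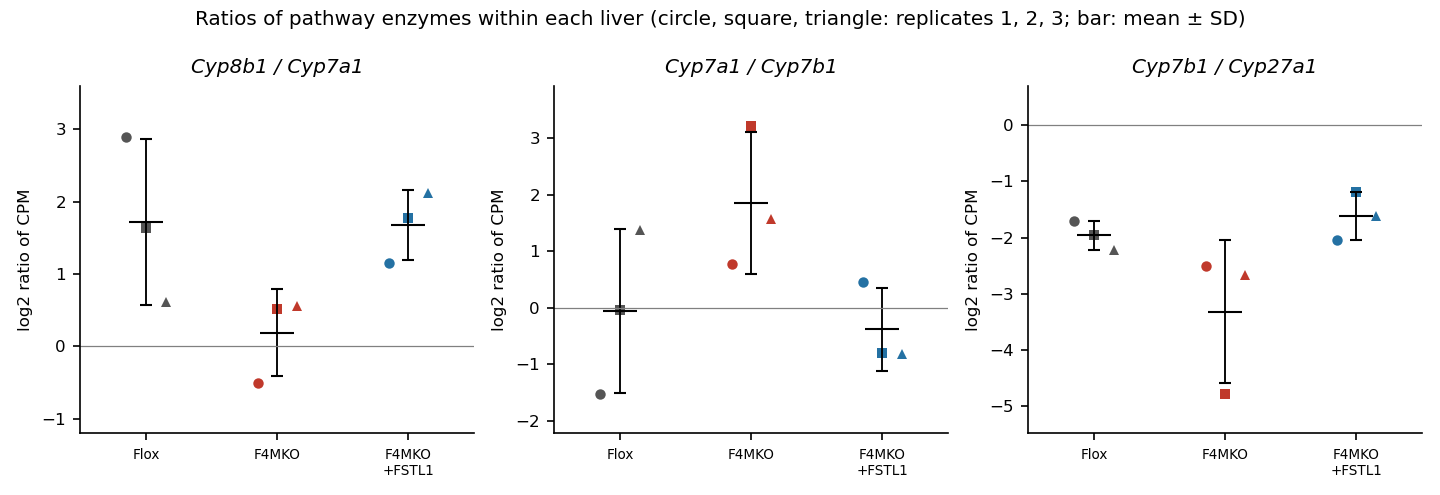
Log2 ratio of CPM between 2 pathway enzyme genes within each liver (vertical axis) by group (horizontal axis), with a symbol per replicate and bars for the mean ± SD of 3 livers. The Cyp8b1 to Cyp7a1 ratio spans 0.62 to 2.90 in Flox livers, and the Cyp7b1 to Cyp27a1 ratio reaches -4.78 in F4MKO replicate 2.

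Akr1d1, which encodes the Δ4-3-oxosteroid 5β-reductase used by both pathways (chromosome 6, 37530173 to 37568815, plus strand, 9 exons), measured 56.0, 49.9 and 78.8 CPM in the Flox livers, 46.6, 86.3 and 70.9 CPM in the F4MKO livers and 86.2, 39.0 and 83.8 CPM in the F4MKO + FSTL1 livers. All groups overlapped. The log2 fold change was 0.14 with an interval from -0.51 to 0.79 in F4MKO against Flox livers (adjusted p = 0.845) and 0.04 with an interval from -0.61 to 0.69 in F4MKO + FSTL1 against F4MKO livers (adjusted p = 0.944).

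Both conjugation genes were lowest in F4MKO livers, Slc27a5 by more than Baat. Slc27a5 (chromosome 7, 12988346 to 12998192, minus strand, 10 exons) measured 826, 707 and 716 CPM in the Flox livers, 431, 611 and 669 CPM in the F4MKO livers and 895, 869 and 826 CPM in the F4MKO + FSTL1 livers. F4MKO livers lay below all others, whereas the highest Flox liver (825.8 CPM) and the lowest F4MKO + FSTL1 liver (825.9 CPM) all but met. Slc27a5 was higher in F4MKO + FSTL1 than in F4MKO livers (log2 fold change 0.60 ± 0.15, edgeR adjusted p = 0.0194), but at 1.51-fold it only just passed the fold threshold. The call was lost without F4MKO replicate 1 (log2 fold change 0.43, adjusted p = 0.0440), without F4MKO + FSTL1 replicate 1 (0.57, adjusted p = 0.0520) and without F4MKO + FSTL1 replicate 2 (0.60, adjusted p = 0.0620). Slc27a5 differed by -0.39 ± 0.15 on the log2 scale between F4MKO and Flox livers (adjusted p = 0.233).

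Baat, the gene of the amino acid transferase (chromosome 4, 49489422 to 49506557, minus strand, 4 exons), measured 309.7, 279.8 and 295 CPM in the Flox livers, 234, 253 and 269 CPM in the F4MKO livers and 290.0, 297 and 308 CPM in the F4MKO + FSTL1 livers. F4MKO livers lay below all other livers by a small margin. The log2 fold change was -0.23 ± 0.098 in F4MKO against Flox livers (adjusted p = 0.275) and 0.24 ± 0.098 in F4MKO + FSTL1 against F4MKO livers (adjusted p = 0.0985). Its interval in F4MKO + FSTL1 against Flox livers, from -0.20 to 0.23, was the narrowest of the 10 genes.

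The uptake gene Slc10a1 (chromosome 12, 80953183 to 80968705, minus strand, 6 exons), whose promoter is printed above, measured 413, 515 and 589.9 CPM in the Flox livers, 292, 335 and 356 CPM in the F4MKO livers and 501, 547 and 582 CPM in the F4MKO + FSTL1 livers. F4MKO livers lay below every other liver and close to each other. Slc10a1 was 1.66-fold higher in F4MKO + FSTL1 than in F4MKO livers (log2 fold change 0.73 ± 0.14, edgeR adjusted p = 0.00524, higher in 3 of 3 livers), and it was called higher whichever library was left out. In F4MKO against Flox livers the log2 fold change was -0.63 ± 0.14 (adjusted p = 0.0701), which DESeq2 called, and in F4MKO + FSTL1 against Flox livers it was 0.10 with an interval from -0.21 to 0.41. Of the 10 genes it had the smallest adjusted p in both comparisons with F4MKO livers.

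Nr1h4, which encodes the bile acid receptor FXR (chromosome 10, 89454234 to 89533585, minus strand, 11 exons), measured 149, 152 and 228 CPM in the Flox livers, 134, 138 and 174 CPM in the F4MKO livers and 177, 219.6 and 205 CPM in the F4MKO + FSTL1 livers. F4MKO and Flox livers overlapped, and F4MKO + FSTL1 livers lay just above the F4MKO livers. The log2 fold change was -0.24 ± 0.17 in F4MKO against Flox livers (adjusted p = 0.503) and 0.43 ± 0.17 in F4MKO + FSTL1 against F4MKO livers (adjusted p = 0.0973). With 1 library left out, the first estimate ran from -0.37 to -0.019, the latter without Flox replicate 3, the Flox liver with the highest Nr1h4 level.

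Nr0b2, the SHP gene that FXR induces (chromosome 4, 133553376 to 133556536, plus strand, 2 exons), measured 72.6, 49.0 and 52.1 CPM in the Flox livers, 42.5, 32.2 and 20.04 CPM in the F4MKO livers and 49.7, 79.3 and 28.9 CPM in the F4MKO + FSTL1 livers. F4MKO livers lay below Flox livers, and F4MKO + FSTL1 livers spread across both. The log2 fold change was -0.87 ± 0.33 in F4MKO against Flox livers (adjusted p = 0.225) and 0.74 ± 0.33 in F4MKO + FSTL1 against F4MKO livers (adjusted p = 0.1404). Nr0b2 was called higher in the latter comparison without F4MKO + FSTL1 replicate 3 (log2 fold change 1.04, adjusted p = 0.0309), but without F4MKO + FSTL1 replicate 2 the estimate was 0.32 (adjusted p = 0.533). The lowest Nr0b2 liver of each F4MKO group was its replicate 3, which held the highest Cyp7a1 level among F4MKO livers but the lowest among F4MKO + FSTL1 livers.

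The genes whose levels followed each hydroxylase or Nr0b2 most closely across the 9 libraries were found by the root mean square difference of log2 CPM, each gene centred on its own mean. For Cyp7b1 these were Sult2a8, a sulfotransferase gene (0.26), the organic anion carrier gene Slco1a1 (0.29) and Gm3734 (0.37), where the median over all tested genes was 1.06. Sult2a8 ran from 117 to 352 CPM in F4MKO livers and from 613 to 1099 CPM in the others, with its lowest value in F4MKO replicate 2, as Cyp7b1 had. For Cyp8b1 they were Bdh2 (0.19), Gm38882 (0.33) and the carbonic anhydrase gene Car3 (0.35), each lowest in F4MKO replicate 1, against a median of 0.80.

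Cyp27a1 was followed most closely of all, by Iyd (0.030), the aldehyde dehydrogenase gene Aldh7a1 (0.041) and the methionine sulfoxide reductase gene Msra (0.044), against a median of 0.27. For Nr0b2 they were Keg1 (0.20), Gm40804 and Gm39759 (both 0.23), against a median of 0.63. The genes nearest to Cyp7a1 were Neil2 (0.36), Fam71e1 and Smc1b (both 0.37), which all lay below 2 CPM in every library, against a median of 0.70. These distances are a description over 9 libraries of 3 groups.

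A wider list of 48 other genes of bile acid synthesis, transport and regulation held 47 listed genes, of which 44 were tested. The remaining gene was not analysed here, and Ch25h, Slc51a and Gpbar1 had too few reads. EdgeR called 0 of the 44 in F4MKO against Flox livers (11 at an unadjusted p below 0.05, against 16.9% of all tested genes, and 2 called by DESeq2, against 2.23%), with 32 estimates lower and 12 higher. In F4MKO + FSTL1 against F4MKO livers 9 were called, 5 higher and 4 lower, with 30 estimates higher, where 14.4% of all tested genes were called, 3.21% higher and 11.2% lower. At an unadjusted p below 0.05 there were 23 of the 44, against 35.3% of all tested genes. In F4MKO + FSTL1 against Flox livers edgeR and DESeq2 called 0, and 5 had an unadjusted p below 0.05 by edgeR, against 13.4% of all tested genes. The medians of the log2 fold changes were -0.11, 0.16 and 0.02 in the 3 comparisons.

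Among 15 tested genes of the other synthesis steps, 3 were higher and 2 lower in F4MKO + FSTL1 than in F4MKO livers. Slc27a2, which encodes a very-long-chain acyl-CoA synthetase, measured 1550.3, 1814 and 1649 CPM in the Flox livers, 995, 1402 and 1436 CPM in the F4MKO livers and 2116, 2199 and 2139.9 CPM in the F4MKO + FSTL1 livers, and its F4MKO + FSTL1 livers lay above all others (log2 fold change 0.75 against F4MKO livers, adjusted p = 0.00552). Cyp46a1, the gene of cholesterol 24-hydroxylase, rose by 1.24 on the log2 scale (adjusted p = 0.0120) from levels below 4 CPM, and Akr1c14, a hydroxysteroid dehydrogenase gene, by 0.59 (adjusted p = 0.0101). Acnat2, an acyl-CoA:amino acid transferase gene akin to Baat, fell by 1.32 (adjusted p = 0.0106), and Cyp39a1, the gene of an oxysterol 7α-hydroxylase that like CYP7B1 acts on side-chain-hydroxylated sterols, fell by 0.59 (adjusted p = 0.0173). Cyp39a1 measured 31.7, 32.1 and 34.2 CPM in the Flox livers, 35.3, 50.3 and 32.2 CPM in the F4MKO livers and 26.7, 23.6 and 27.7 CPM in the F4MKO + FSTL1 livers, so that the 2 oxysterol 7α-hydroxylase genes moved in opposite directions. Scp2, the gene of these steps with the highest mean CPM and RPKM, was not called (log2 fold change 0.36, adjusted p = 0.0840).

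Of the calls above, Cyp46a1 and Akr1c14 were lost without F4MKO replicate 1 (log2 fold changes 1.07 and 0.55, adjusted p = 0.0530 and 0.0407). Without F4MKO + FSTL1 replicate 2, Cyp46a1, Akr1c14 and Cyp39a1 were lost (1.13, 0.45 and -0.52, adjusted p = 0.0513, 0.0442 and 0.0787). Akr1c14 was also lost without F4MKO replicate 3 (0.58) and Cyp39a1 without F4MKO replicate 2 (-0.38), both at a fold below 1.5. Cyp39a1 also fell short of that fold with DESeq2 (-0.58), with DESeq2's size factors, without the filter and with a replicate block, and Akr1c14 with only the 6 libraries compared or with a replicate block (0.58 in both). Reads of Acnat2 and Akr1c14 may be shared with the similar genes Acnat1 and Akr1c6, which were counted apart.

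Of 9 tested export genes, 2 were lower in F4MKO + FSTL1 than in F4MKO livers and none higher. Slc51b, the β subunit of the basolateral exporter OSTα-OSTβ, had 9, 7 and 3 reads in Flox livers, 45, 20 and 20 reads in F4MKO livers and 2, 1 and 1 reads in F4MKO + FSTL1 livers. It was thus at least 7.32-fold lower in the last group than in F4MKO livers, with 3 reads per library taken as the floor (edgeR adjusted p = 0.00177), while the α subunit gene Slc51a had at most 1 read in any library. Abcc4, the basolateral exporter MRP4, fell by 0.96 on the log2 scale (adjusted p = 0.0207) at levels below 8 CPM, and the call was lost without F4MKO replicate 2 (-0.62, adjusted p = 0.0636), F4MKO + FSTL1 replicate 1 (-0.91, 0.0615) or F4MKO + FSTL1 replicate 2 (-0.91, 0.0769). Abcb11, which encodes the canalicular bile salt export pump and had the highest mean CPM of the export genes (475 CPM), lay below the phospholipid exporter gene Abcb4 per kilobase of exon (92.4 against 106 RPKM over 9 libraries). It differed by -0.13 with an interval from -0.45 to 0.20 (adjusted p = 0.579).

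Of 5 tested uptake genes, 1 was called in F4MKO + FSTL1 against F4MKO livers. Slco1a1, which encodes the organic anion carrier OATP1A1, measured 216, 255 and 249 CPM in the Flox livers, 117, 28.5 and 102 CPM in the F4MKO livers and 340.1, 393 and 272 CPM in the F4MKO + FSTL1 livers. F4MKO livers were the lowest and did not overlap with the others, and the log2 fold change was 2.02 ± 0.39 (adjusted p = 0.00498), where reads may be shared with similar Slco1a genes. Against Flox livers, F4MKO livers differed by -1.54 ± 0.38 (adjusted p = 0.0919), and Slco1a1 was called lower there without F4MKO replicate 2 (-1.14, adjusted p = 0.0362). Ephx1, the epoxide hydrolase gene with the highest mean CPM and RPKM of this group, was not called (-0.38, adjusted p = 0.103).

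Of 15 tested regulators, only Nr1i3, the gene of the xenobiotic receptor CAR, was called, with 53.1, 88.9 and 116 CPM in the Flox livers, 60.6, 69.6 and 78.8 CPM in the F4MKO livers and 124, 111 and 142 CPM in the F4MKO + FSTL1 livers. F4MKO + FSTL1 livers lay above F4MKO livers (log2 fold change 0.85, adjusted p = 0.0221), and Flox livers spanned from below the F4MKO livers into the range of the F4MKO + FSTL1 livers. The call was lost without F4MKO replicate 1 (0.76, adjusted p = 0.0884), F4MKO replicate 2 (0.85, 0.0523) or F4MKO + FSTL1 replicate 3 (0.76, 0.0578). Hnf4a, the hepatocyte factor gene with the highest mean CPM and RPKM of the regulators, differed by 0.06 with an interval from -0.23 to 0.35 (adjusted p = 0.774). Named after their values were seen, Amacr (0.48), Slco1b2 (0.52), Ppara (0.58) and Rxra (0.34) had an adjusted p below 0.05 in this comparison at a fold below 1.5.

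**Figure D4:**
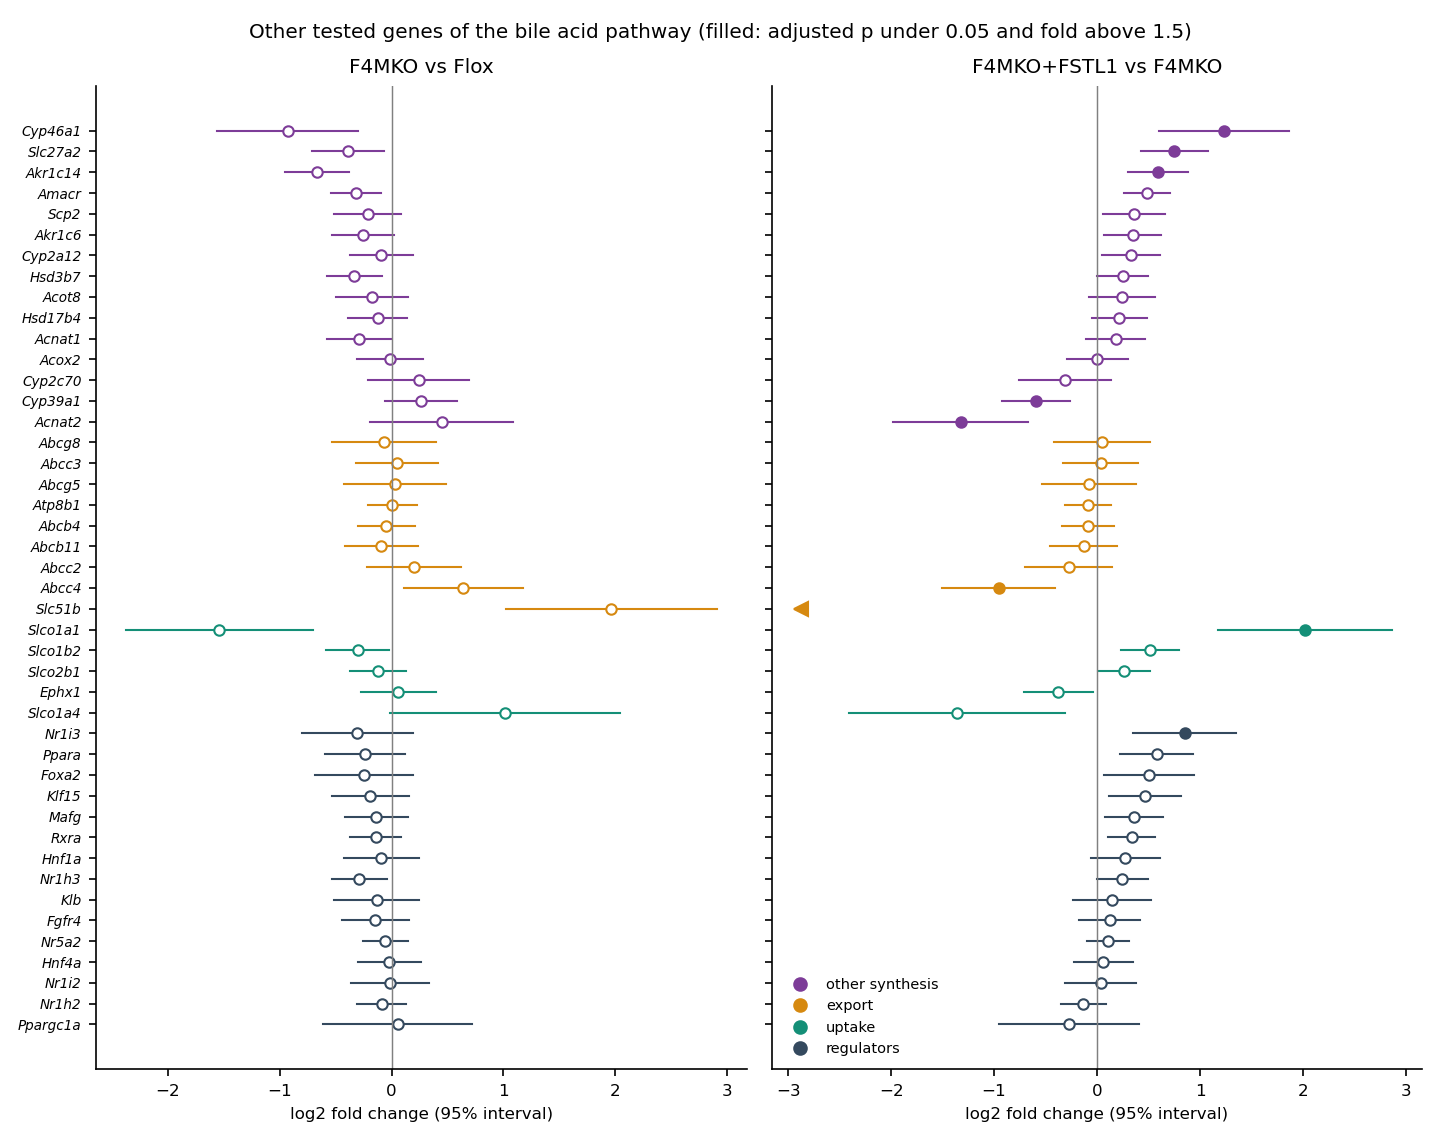
Log2 fold changes (points) with 95% intervals (lines) of the 44 other tested genes of the pathway, coloured by role, in F4MKO against Flox (left) and F4MKO + FSTL1 against F4MKO livers (right), with filled points for called genes. The triangle marks the bound for Slc51b, at least 7.32-fold lower, and the filled points at the right are Slco1a1 (2.02), Cyp46a1 (1.24), Nr1i3 (0.85), Slc27a2 (0.75) and Akr1c14 (0.59).

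Markers of several cell types moved with the groups in the same libraries. Of 10 hepatocyte markers, 1 was called higher (Serpina1c) and none lower in F4MKO + FSTL1 against F4MKO livers, and their median log2 fold changes were -0.19 in F4MKO against Flox livers and 0.25 in F4MKO + FSTL1 against F4MKO livers. Cholangiocyte markers summed to 72.2 to 112 CPM in Flox livers, 189 to 471 CPM in F4MKO livers and 55.5 to 72.0 CPM in F4MKO + FSTL1 livers, with 2 of 8 tested genes called higher in F4MKO than in Flox livers and 6 of 8 called lower in F4MKO + FSTL1 than in F4MKO livers. Stellate cell markers summed to 429.5 to 507 CPM, 581 to 773 CPM and 277 to 385 CPM in the same order. Of these 10 markers, 8 were called lower in F4MKO + FSTL1 than in F4MKO livers, and 0 were called in F4MKO against Flox livers. Across all tested genes, 0.271% were called in F4MKO against Flox livers. In F4MKO + FSTL1 against F4MKO livers, 3.21% of all tested genes were called higher and 11.2% lower.

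In that comparison 6 of 10 macrophage markers and 8 of 8 cycling markers were also called lower. No endothelial or lymphocyte marker was called (2 of 10 and 0 of 7 at an unadjusted p below 0.05, against 35.3% of all tested genes). Macrophage markers summed to 438 to 715 CPM in Flox livers, 517 to 625 CPM in F4MKO livers and 258 to 406 CPM in F4MKO + FSTL1 livers. Cycling markers summed to 15.8 to 28.2 CPM, 33.3 to 40.5 CPM and 5.96 to 9.51 CPM in the same order. In F4MKO against Flox livers, 1 of the 10 macrophage markers was called higher, with 6 estimates higher and 4 lower. No cycling marker was called there, where 0.271% of all tested genes were. The part of cell composition in the differences of the bile acid genes was not tested. Without F4MKO replicate 1, the liver with the lowest hepatocyte sum, the estimates in F4MKO + FSTL1 against F4MKO livers changed in both directions. Cyp7b1 went from 1.76 to 1.93 and stayed called (adjusted p = 0.0316), as did Slc10a1, from 0.73 to 0.65 (adjusted p = 0.0225). Cyp8b1 went from 1.01 to 0.61, at which it was called (adjusted p = 0.0250), and Slc27a5 from 0.60 to 0.43, at which it was not.

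**Figure D5:**
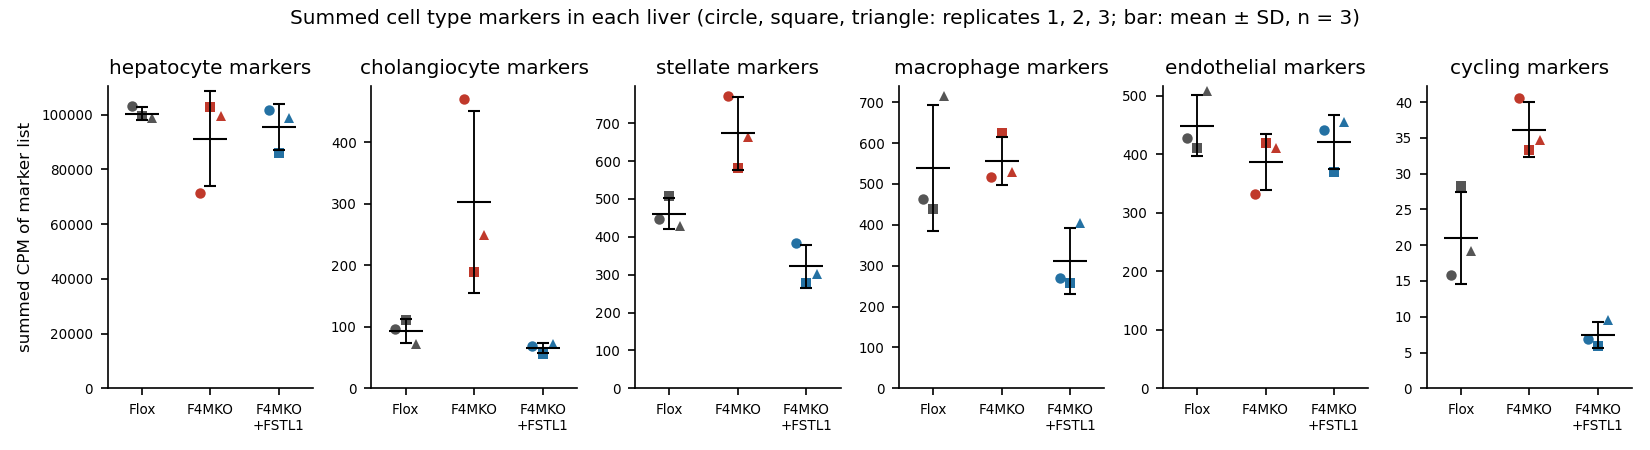
Summed level of each marker list (vertical axis, CPM from 0) in the 3 livers of each group, with a symbol per replicate and bars for the mean ± SD. F4MKO replicate 1 (circle) has the lowest hepatocyte sum, 71327 CPM, and the highest cholangiocyte sum, 471 CPM.

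Genes of the circadian clock, with which Cyp7a1 is known to cycle, also differed between the groups. Of 12 clock genes, 0 were called in F4MKO against Flox livers (0 at an unadjusted p below 0.05) and 7 in F4MKO + FSTL1 against F4MKO livers, 5 higher and 2 lower. Of all tested genes, 0.271% were called and 16.9% had an unadjusted p below 0.05 in the former comparison. In the latter, 3.21% were called higher and 11.2% lower. Dbp, a clock output gene, measured 24.3, 43.6 and 65.5 CPM in the Flox livers, 21.3, 35.1 and 62.3 CPM in the F4MKO livers and 96.2, 111 and 80.8 CPM in the F4MKO + FSTL1 livers. Arntl, which peaks at the opposite time of day, measured 13.8, 8.60 and 5.10 CPM in the Flox livers, 12.5, 10.01 and 7.07 CPM in the F4MKO livers and 3.13, 2.79 and 3.13 CPM in the F4MKO + FSTL1 livers. F4MKO + FSTL1 livers were thus the highest in Dbp and the lowest in Arntl (log2 fold changes against F4MKO livers 1.28 and -1.71, adjusted p = 0.0336 and 0.00505), and Npas2 was lower as well (-2.05, adjusted p = 0.0145). The call of Dbp was lost without F4MKO replicate 1 (0.97, adjusted p = 0.111), F4MKO replicate 2 (1.20, 0.0898), F4MKO + FSTL1 replicate 1 (1.28, 0.0653) or F4MKO + FSTL1 replicate 2 (1.17, 0.105), and that of Npas2 without F4MKO replicate 1 (-1.68, 0.0624). Among Flox livers and among F4MKO livers, the order of Dbp was that of Cyp7a1, and also that of the replicate numbers. Among F4MKO + FSTL1 livers Dbp did not follow Cyp7a1, and that group had the highest Dbp together with the lowest mean Cyp7a1 (153 CPM). The time of collection is not given in the sources used here, and its part was not tested.

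Cyp7b1 and Slco1a1 are more highly expressed in male than in female mouse liver, and other male-biased genes differed in the same comparison. Of 8 such genes tested, 2 were called higher in F4MKO + FSTL1 than in F4MKO livers and 0 were called in F4MKO against Flox livers (5 at an unadjusted p below 0.05, all lower). Of all tested genes, 3.21% were called higher in the former comparison. In the latter, 0.271% were called and 16.9% had an unadjusted p below 0.05. Hsd3b5, a hydroxysteroid dehydrogenase gene, measured 14.6, 10.9 and 39.5 CPM in the Flox livers, 4.67, 0.126 and 0.599 CPM in the F4MKO livers and 75.8, 155 and 50.8 CPM in the F4MKO + FSTL1 livers, and Mup7, a major urinary protein gene whose reads may be shared with similar Mup genes, measured 1264, 649.8 and 1882 CPM in the Flox livers, 191, 6.78 and 259 CPM in the F4MKO livers and 3634, 5787 and 5217 CPM in the F4MKO + FSTL1 livers. Both were lowest in F4MKO replicate 2, the liver with the lowest Cyp7b1, and their log2 fold changes in F4MKO + FSTL1 against F4MKO livers were 5.64 (adjusted p = 0.00182) and 5.002 (adjusted p = 0.00491). Cyp2d9 was not called (1.03, adjusted p = 0.0540). The sample titles do not give the sex of the mice, and the part of sex-biased regulation in the difference of Cyp7b1 was not tested.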

How the data were processed

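Liver RNA of 9 mice was sequenced, with 1 library per mouse and 3 mice per group. The authors trimmed reads with Trim Galore 0.6.7, mapped them to mm10 with HISAT2 2.2.1 and deposited whole-number counts per gene from featureCounts 2.0.1. The annotation, strand setting and treatment of multiply mapped reads are not given in the sources used here. The labels' WT group was taken as the Flox group.

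The deposited counts were fitted in R 4.3.3 with edgeR 4.0.16 (filterByExpr with a minimum count of 10 and total of 15, TMM, quasi-likelihood test) on all 9 libraries, with a mean per group. The filter left 14379 of 24008 genes. Values after ± are SD for levels and SE for log2 fold changes. Exon lengths and coordinates came from GENCODE on GRCm38, and RPKM were computed here from the counts. Library totals of 20656976 to 24322984 reads limit only genes of few reads. No pair of libraries in a group agreed within sampling noise.

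The 10 genes and all lists were chosen with earlier results of these data known. The genes named are the 10 members, wider-list genes called in any comparison or most abundant in their group, the 3 genes most like 5 of the members, and up to 3 clock and male-biased genes with the largest change. The fit was tested on simulated data. Alternatives were DESeq2 1.42.0, its size factors in edgeR, no filter, 6 libraries only, a replicate block, no fold threshold, a test against 1.5-fold, and each library left out.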

Additional observations from a re-analysis of the deposited data

How the results depend on the processing

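Of the called members, Slc10a1 stayed called in F4MKO + FSTL1 against F4MKO livers under every alternative except a test against 1.5-fold, which called 0 of the 10 members, 2 of the wider list and 620 of all genes, where the fit as reported called 3, 9 and 2070. Without the filter on low counts, 4 members were called in F4MKO against Flox livers and 5 in F4MKO + FSTL1 against F4MKO livers. The wider list then had 4 calls in F4MKO against Flox livers and 1 in F4MKO + FSTL1 against Flox livers, and all genes had 478 and 379. In F4MKO + FSTL1 against F4MKO livers, the alternatives other than leaving out a library called 620 to 3001 of all genes. With DESeq2, 1 member, 2 of the wider list and 338 of all genes were called in F4MKO against Flox livers, where edgeR called 0, 0 and 39, and 284 of all genes in F4MKO + FSTL1 against Flox livers, where edgeR called 1. With DESeq2's size factors in edgeR the last count was 2. With only the 6 libraries compared it was 0, and 11 genes were called in F4MKO against Flox livers. A test against 1.5-fold called 0 of all genes in F4MKO against Flox livers (483 at an unadjusted p below 0.05) and 0 in F4MKO + FSTL1 against Flox livers.

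Replicate numbers are shared across groups in the labels, which do not say what they stand for. Deviations from the group means of same-numbered libraries correlated at 0.082, 0.042 and 0.169 for F4MKO with Flox. They correlated at 0.111, 0.092 and 0.304 for F4MKO + FSTL1 with F4MKO, and at 0.00077, -0.099 and 0.206 for F4MKO + FSTL1 with Flox. Between F4MKO + FSTL1 and F4MKO, every library correlated best with its own number. Between F4MKO and Flox, Flox replicate 2 did not, and between F4MKO + FSTL1 and Flox, replicates 1 and 2 did not. The numbers were not taken to pair the mice, and a replicate block was fitted only as an alternative. On the second principal component (the second main axis of variation of log2 CPM), replicate 3 of each group stood apart. It lay at 20.1 in Flox, 16.8 in F4MKO and 24.2 in F4MKO + FSTL1 livers, and all other libraries lay between -20.7 and 2.40. What same-numbered libraries share was not tested. With a replicate block, 1 member, 2 of the wider list and 134 of all genes were called in F4MKO against Flox livers, and 15 of all genes in F4MKO + FSTL1 against Flox livers. Cyp8b1 then joined the called members in F4MKO + FSTL1 against F4MKO livers (log2 fold change 1.15, adjusted p = 0.0403). The block turned the estimates of Akr1d1 in F4MKO + FSTL1 against F4MKO livers (-0.0041) and of Cyp7a1 in F4MKO + FSTL1 against Flox livers (0.15).

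With 1 library left out in turn, 0 to 100 of all genes were called in F4MKO against Flox livers, 1295 to 2216 in F4MKO + FSTL1 against F4MKO livers and 0 to 101 in F4MKO + FSTL1 against Flox livers. Members called ranged from 1 to 4 in F4MKO + FSTL1 against F4MKO livers and were 0 in the other comparisons. The wider list ranged from 0 to 1, from 5 to 10 and from 0 to 1 in the same order.

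No called estimate changed sign. Among estimates not called, these changed sign with 1 library left out. In F4MKO against Flox livers they ran from -0.27 to 0.84 (Cyp7a1), -0.068 to 0.36 (Akr1d1), -0.24 to 0.032 (Abcb11), -0.030 to 0.16 (Ephx1), -0.14 to 0.083 (Hnf4a), -0.19 to 0.52 (Arntl) and -0.66 to 0.22 (Dbp). In F4MKO + FSTL1 against F4MKO livers they ran from -0.54 to 0.036 (Cyp7a1), -0.18 to 0.33 (Akr1d1), -0.25 to 0.016 (Abcb11) and -0.042 to 0.18 (Hnf4a). In F4MKO + FSTL1 against Flox livers they ran from -0.51 to 0.60 (Cyp7a1), -0.0030 to 0.47 (Akr1d1), -0.018 to 0.056 (Baat), -0.022 to 0.23 (Slc10a1), -0.56 to 0.16 (Nr0b2), -0.22 to 0.039 (Akr1c14) and -0.022 to 0.11 (Hnf4a). The causes of these shifts were not tested.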
